A study of Mus musculus with 24 samples.

Results

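Type I interferon effector genes are the genes that cells switch on when interferon binds its receptor, and 10 of them were followed in mouse dorsal root ganglia, the clusters of sensory neuron bodies whose axons form much of the sciatic nerve. The members were the rows with the symbols Ifit1, Ifit2, Ifit3, Rsad2, Mx1, Mx2, Isg15, Usp18, Bst2 and Ifi44. They are 10 of 38215 genes in the files, and all 10 passed the filter on low values that left 27058 genes for testing. The study's title concerns axon regeneration in injured CAST/Ei mice, and RNA of ganglia was sequenced; 3 of its strains (labelled CAST, DBA and C57) are analysed here, of which CAST/Ei is a wild-derived inbred line. Its 6 groups were injured CAST, naive CAST, injured DBA, naive DBA, injured C57 and naive C57, each with 4 libraries that the design calls biological quadruplicates. Injured ganglia, labelled Ax5d, were taken 5 days after a crush of the sciatic nerve. The ganglia without crush are labelled naive, although the treatment protocol speaks of a sham injury, so a sham operation may have been done. No mutation, transgene or drug is given for any group, and the labels give neither age nor sex, nor how many animals stand behind a library, nor any batch. The p-values therefore measure the spread between libraries.

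Interferon alpha and beta bind a receptor made of IFNAR1 and IFNAR2, whose kinases JAK1 and TYK2 phosphorylate STAT proteins such as STAT2. With IRF9 these form a complex that binds a DNA element, the interferon-stimulated response element (ISRE), in the promoters of effector genes. The effector proteins block steps of viral growth, and a set of them is often read as a signature of interferon signalling in a tissue. In ganglia such genes can be expressed by neurons, glia, vessels and immune cells. Most inbred laboratory strains of mice are known to carry disrupted copies of Mx1 and Mx2, whereas intact copies are known from wild-derived mice.

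The annotation (GENCODE M21 on build mm10) places the 3 Ifit genes close together on chromosome 19, with Ifit1 at 34640871 to 34650009 on the plus strand, Ifit2 at 34550694 to 34576419 on the plus strand and Ifit3 at 34583531 to 34588731 on the plus strand. Mx1 (97447035 to 97462907 on the minus strand) and Mx2 (97535308 to 97560900 on the plus strand) are neighbours on chromosome 16, and Mx2 is annotated as a polymorphic pseudogene while the other 9 are protein-coding. Rsad2 lies on chromosome 12 (26442746 to 26456452 on the minus strand), Isg15 on chromosome 4 (156199424 to 156200818 on the minus strand) and Usp18 on chromosome 6 (121245906 to 121270917 on the plus strand). Bst2 lies on chromosome 8 (71534255 to 71537456 on the minus strand) and Ifi44 on chromosome 3 (151730922 to 151749960 on the minus strand).

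Because the 10 genes moved together in CAST, the promoter windows of RefSeq (build GRCm38.p6, 250 bases before to 50 bases after a start) were searched for 2 short motifs. The first was the ISRE core, GAAA, then any 2 bases, then GAAA, on either strand, where matches may overlap each other. It was found in 3.44% of all 32851 windows. Windows were held for 7 members, and 5 of these had the core, while Ifi44 and both windows of Ifit2 did not. The second motif was the GAS core TTCNNNGAA, which reads the same on both strands, may overlap the first, and was found in 8.30% of all windows and in those of Bst2 and Ifit2. The stretches below show the ISRE cores (in capitals) of the 5 genes with 30 bases on each side, read 5′ to 3′ along the strand of the gene.
Ifit1: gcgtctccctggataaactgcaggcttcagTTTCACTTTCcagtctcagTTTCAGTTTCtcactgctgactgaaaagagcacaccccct
Ifit3: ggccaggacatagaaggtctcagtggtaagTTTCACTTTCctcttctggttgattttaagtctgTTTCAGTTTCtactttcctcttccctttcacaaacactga
Rsad2: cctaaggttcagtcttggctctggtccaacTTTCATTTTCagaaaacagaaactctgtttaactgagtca
Isg15: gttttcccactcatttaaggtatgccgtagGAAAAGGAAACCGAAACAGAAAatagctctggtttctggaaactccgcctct
Bst2: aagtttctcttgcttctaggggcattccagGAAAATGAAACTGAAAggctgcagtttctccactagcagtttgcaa
The first core begins 104 bases before the start of Ifit1, 156 before that of Ifit3, 120 before that of Rsad2, 78 before that of Isg15 and 130 before that of Bst2. Ifit1, Ifit3 and Rsad2 carry it as TTTC pairs, that is, on the opposite strand. Isg15 has 3 overlapping matches and Bst2 has 2, each overlapping set printed as 1 run of capitals. The stretch of Ifit1 is chr19:34640755-34640843 and that of Ifit3 is chr19:34583343-34583446, both on the plus strand. The stretch of Rsad2 is chr12:26456533-26456602, that of Isg15 is chr4:156200845-156200926 and that of Bst2 is chr8:71537557-71537632, all on the minus strand. A match is a description of these letters in the reference sequence, which stems from C57BL/6, and does not show binding of a factor.

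Levels are FPKM as deposited (fragments per kilobase of gene, scaled to the depth of the library), and the kilobase term matched the full span of a gene with its introns, so levels of different genes are not compared here. Library totals recovered from the values were between 51.4 and 145.5 M (mega) reads with a median of 107.1 M, and estimated reads per gene follow from them. Injured C57 replicate 3 had the fewest reads, and naive DBA replicate 3 the highest sum of skeletal muscle markers (39.7 FPKM). Without them and naive C57 replicate 1, an alternative chosen after seeing the data, the counts of called members after crush were unchanged. The least covered member was Mx1 in naive DBA ganglia, with 9 to 14 estimated reads per library. Log2 fold changes below are differences in log2(FPKM + 1), which understate the change of genes with low FPKM, so the ratio of mean FPKM is given beside them. A gene was called higher or lower at an adjusted p under 0.05 in limma. Summed over 10 neuron markers, levels were 427 to 433 FPKM in injured CAST and 614 to 645 FPKM in naive CAST ganglia, and every marker was detected. In DBA the sums were 463 to 493 FPKM in injured and 641 to 695 FPKM in naive ganglia. In C57 they were 432 to 511 FPKM in injured and 629 to 651 FPKM in naive ganglia. After crush 9 of the 10 markers were called lower in CAST, 9 in DBA and 8 in C57. Of all genes, 21.5% were called lower in CAST, 23.8% in DBA and 20.5% in C57. In such bulk samples fewer cells of a type and less RNA per cell cannot be told apart.

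All 10 effector genes rose after crush in CAST ganglia, and for each of them the injured libraries lay above the naive ones without overlap. Of all genes tested in that comparison, 25.6% rose and 21.5% fell, and 25.0% were higher with no overlap. With upper-quartile scaling all called genes split into 5961 higher and 6638 lower (6937 and 5821 as deposited), and all 10 members stayed higher. The median log2 fold change was 1.73 over the 10 genes and 0.002 over all genes.

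**Figure D1:**
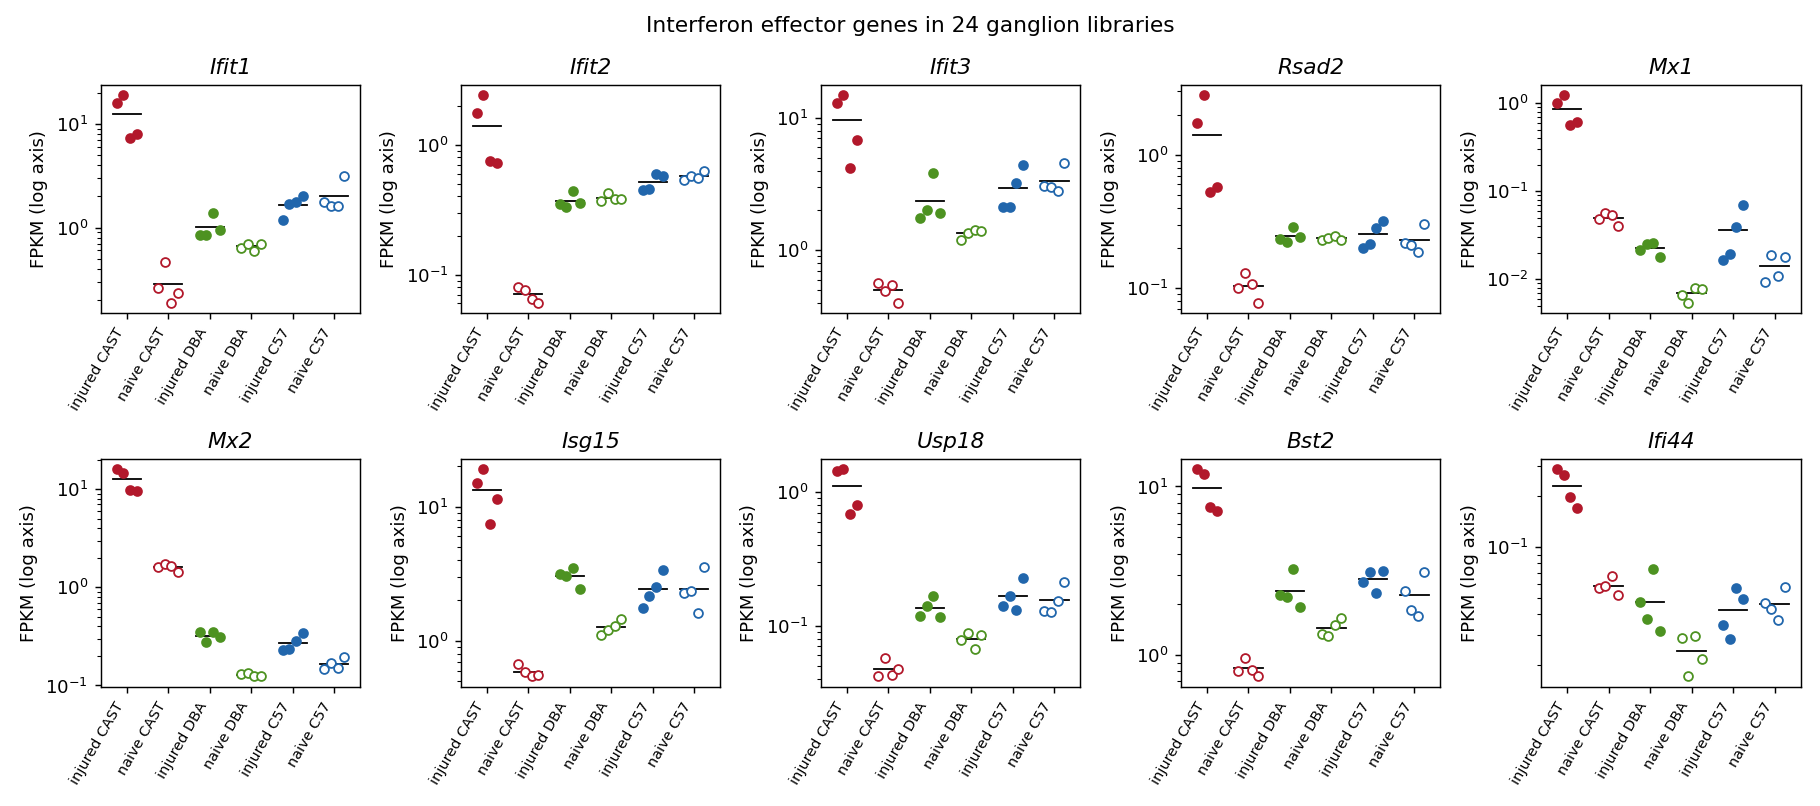
Level of each gene in FPKM (log axis, a separate axis for each gene) in the 24 libraries. Each point is a library, filled for injured and open for naive ganglia, red for CAST, green for DBA and blue for C57, and the bar is the mean of 4. Injured CAST libraries stand at the top, except replicate 3 for Ifit3, and the naive CAST mean is the lowest for 7 genes but second for Mx1, Mx2 and Ifi44.

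The Ifit proteins bind foreign RNA or block its translation. Ifit1 recognises RNA whose cap lacks a methyl group. It was at 16.1, 19.0, 7.37 and 7.93 FPKM in injured CAST, against 0.262, 0.460, 0.187 and 0.233 FPKM in naive CAST ganglia. In injured DBA ganglia it was at 0.838, 0.838, 1.39 and 0.944 FPKM, and in naive DBA at 0.635, 0.696, 0.595 and 0.699 FPKM. In C57 the values were 1.18, 1.68, 1.76 and 2.02 FPKM in injured and 1.78, 1.63, 1.61 and 3.12 FPKM in naive ganglia. Every injured CAST library exceeded all other libraries, naive CAST was the lowest group, and in C57 the groups overlapped. The ratio of means in CAST was 44.1 (log2 fold change 3.30, SE 0.216, adjusted p = 1.05e-10). Ifit3 forms complexes with Ifit1 and adaptor proteins of antiviral signalling. Its levels were 13.0, 14.8, 4.21 and 6.77 FPKM in injured CAST and 0.569, 0.495, 0.544 and 0.402 FPKM in naive CAST ganglia. DBA ganglia had 1.74, 2.0, 3.80 and 1.92 FPKM when injured and 1.20, 1.35, 1.43 and 1.41 FPKM when naive. C57 ganglia had 2.12, 2.12, 3.25 and 4.43 FPKM when injured and 3.05, 3.0, 2.82 and 4.57 FPKM when naive. Injured CAST replicate 3 lay below the highest library of either C57 group, the other 3 above all others, and naive CAST was again lowest. In CAST the ratio was 19.3 (log2 fold change 2.70, SE 0.268, adjusted p = 4.64e-08). Ifit2, an RNA-binding relative, is known from mice to limit viral infection of neurons. Injured CAST libraries held 1.75, 2.41, 0.750 and 0.720 FPKM and naive CAST libraries 0.0805, 0.0759, 0.0644 and 0.0607 FPKM. The injured DBA libraries held 0.347, 0.332, 0.438 and 0.359 FPKM and the naive DBA libraries 0.367, 0.423, 0.380 and 0.381 FPKM. The injured C57 libraries held 0.451, 0.454, 0.600 and 0.576 FPKM and the naive C57 libraries 0.539, 0.574, 0.555 and 0.625 FPKM. All injured CAST libraries were above the rest, while in DBA and C57 injured and naive libraries overlapped. The mean was 1.41 ± 0.820 FPKM in injured CAST and 0.0704 ± 0.00934 FPKM in naive CAST (SD, n = 4; log2 fold change 1.11, SE 0.139, adjusted p = 1.26e-06). Ifit3b, a near copy of Ifit3, was at 6.74 ± 3.56 FPKM in injured and 0.348 ± 0.0711 FPKM in naive CAST ganglia (SD, n = 4; log2 fold change 2.39, adjusted p = 7.36e-08), and Ifit1bl1, a relative of Ifit1, at 0.276 ± 0.166 and 0.0324 ± 0.0101 FPKM (log2 fold change 0.30, adjusted p = 1.15e-04). How reads that fit several copies were counted is not given, so the split between Ifit3 and Ifit3b is uncertain.

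Rsad2 and the Mx genes act on viral RNA synthesis and viral particles. Rsad2 encodes viperin, an enzyme that makes a nucleotide which ends viral RNA chains. It was at 1.73, 2.80, 0.526 and 0.573 FPKM in injured CAST, against 0.101, 0.130, 0.107 and 0.0779 FPKM in naive CAST ganglia. Injured DBA ganglia had 0.236, 0.222, 0.289 and 0.242 FPKM and naive DBA ganglia 0.231, 0.238, 0.247 and 0.230 FPKM. Injured C57 ganglia had 0.199, 0.213, 0.282 and 0.321 FPKM and naive C57 ganglia 0.218, 0.213, 0.187 and 0.304 FPKM. Injured CAST was above all other libraries, and the 4 DBA and C57 groups overlapped each other. Rsad2 had the widest spread within injured CAST, and its CAST ratio was 13.5 (log2 fold change 1.02, SE 0.180, adjusted p = 8.60e-05). Mx1 and Mx2 encode dynamin-like GTPases, in mice a nuclear and a cytoplasmic one. Mx1 stood at 1.01, 1.23, 0.570 and 0.602 FPKM in injured CAST and 0.0483, 0.0565, 0.0540 and 0.0400 FPKM in naive CAST ganglia. It was at 0.0213, 0.0248, 0.0257 and 0.0180 FPKM in injured DBA and 0.00661, 0.00538, 0.00798 and 0.00780 FPKM in naive DBA ganglia. In injured C57 ganglia it was at 0.0163, 0.0191, 0.0394 and 0.0693 FPKM, with 0.00925, 0.0189, 0.0109 and 0.0177 FPKM in naive C57. Injured CAST stood far above the rest, and naive CAST overlapped injured C57 through replicate 4 of the C57 group. The ratio of means was 17.1 in CAST (log2 fold change 0.80, SE 0.0700, adjusted p = 6.48e-09). Mx2 reached 16.1, 14.7, 9.87 and 9.70 FPKM in injured CAST, against 1.61, 1.73, 1.65 and 1.44 FPKM in naive CAST ganglia. Its levels in DBA were 0.348, 0.277, 0.348 and 0.311 FPKM in injured and 0.130, 0.133, 0.124 and 0.124 FPKM in naive ganglia. Its levels in C57 were 0.228, 0.235, 0.285 and 0.339 FPKM in injured and 0.148, 0.168, 0.150 and 0.194 FPKM in naive ganglia. Both CAST groups lay above every DBA and C57 library, and in each of the 3 strains the injured libraries lay above the naive ones. The CAST ratio was 7.82 (log2 fold change 2.35, SE 0.102, adjusted p = 2.09e-13), on a naive CAST level of 3870 to 5056 estimated reads per library.

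Isg15 and Usp18 belong to one modification system. Isg15 is a ubiquitin-like protein that is joined to other proteins and is also released from cells. It was at 15.0, 19.0, 7.40 and 11.5 FPKM in injured CAST and at 0.675, 0.583, 0.542 and 0.554 FPKM in naive CAST ganglia. For DBA the values were 3.12, 3.05, 3.48 and 2.44 FPKM in injured and 1.11, 1.21, 1.30 and 1.45 FPKM in naive ganglia. For C57 they were 1.74, 2.15, 2.52 and 3.35 FPKM in injured and 2.28, 2.36, 1.61 and 3.56 FPKM in naive ganglia. Injured CAST was above all others, injured DBA above naive DBA, and the C57 groups overlapped. The ratio was 22.5 in CAST (log2 fold change 3.09, SE 0.200, adjusted p = 8.57e-11). Usp18 removes ISG15 from proteins and dampens the interferon receptor. Its levels were 1.45, 1.5, 0.688 and 0.805 FPKM in injured CAST, against 0.0415, 0.0574, 0.0426 and 0.0473 FPKM in naive CAST ganglia. Injured DBA libraries were at 0.119, 0.140, 0.168 and 0.116 FPKM and naive DBA libraries at 0.0782, 0.0881, 0.0663 and 0.0850 FPKM. Injured C57 libraries were at 0.139, 0.168, 0.131 and 0.230 FPKM and naive C57 libraries at 0.128, 0.126, 0.152 and 0.214 FPKM. Injured CAST exceeded every other library, and naive CAST was below every other library. In CAST the ratio was 23.5 (log2 fold change 0.99, SE 0.0850, adjusted p = 5.70e-09). Usp18 overlaps an antisense gene, Gm44148, and whether counting used strand is not given, so its reads may hold some of that gene.

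Bst2, also called tetherin, holds budding virus at the cell surface and also marks plasmacytoid dendritic cells. It was at 12.7, 11.8, 7.57 and 7.11 FPKM in injured CAST, with 0.805, 0.965, 0.819 and 0.745 FPKM in naive CAST ganglia. In DBA it was at 2.26, 2.22, 3.26 and 1.91 FPKM in injured and 1.33, 1.29, 1.51 and 1.66 FPKM in naive ganglia. In C57 it was at 2.72, 3.10, 2.34 and 3.16 FPKM in injured and 2.39, 1.86, 1.69 and 3.12 FPKM in naive ganglia. Injured CAST was above all others, and injured DBA was above naive DBA but overlapped both C57 groups. The CAST ratio was 11.8 (log2 fold change 2.52, SE 0.158, adjusted p = 5.40e-11). Ifi44 encodes an interferon-induced protein of the cytoplasm. It was at 0.288, 0.267, 0.196 and 0.170 FPKM in injured CAST and 0.0571, 0.0588, 0.0675 and 0.0519 FPKM in naive CAST ganglia. Injured DBA had 0.0469, 0.0372, 0.0735 and 0.0317 FPKM and naive DBA 0.0289, 0.0171, 0.0297 and 0.0216 FPKM. Injured C57 had 0.0345, 0.0283, 0.0573 and 0.0490 FPKM and naive C57 0.0465, 0.0427, 0.0367 and 0.0581 FPKM. Injured CAST was above all others, while naive CAST overlapped injured DBA and both C57 groups. It had the smallest ratio of the 10 in CAST, 3.92 (log2 fold change 0.22, SE 0.0210, adjusted p = 3.66e-08).

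The 4 injured CAST libraries were not alike. Replicates 1 and 2 were above replicates 3 and 4 for each of the 10 genes, with the ratio of the pairs between 1.52 for Ifi44 and 4.12 for Rsad2. Summed over the 10 genes, levels were 79.1, 87.5, 39.2 and 45.8 FPKM in injured CAST and 4.25, 4.61, 4.08 and 3.65 FPKM in naive CAST replicates 1 to 4. In these 4 injured libraries erythrocyte markers summed to 537, 479, 274 and 358 FPKM and adipocyte markers to 6.98, 9.28, 2.33 and 3.07 FPKM. Schwann cell markers summed to 120, 117, 107 and 108 FPKM. Each of these sums was higher in replicates 1 and 2, and their part in the spread was not tested. Macrophage markers summed to 47.5, 37.1, 45.3 and 40.6 FPKM and did not follow that split. Without replicates 1 and 2 of injured CAST, a choice made after seeing the data, all 10 genes were still called higher after crush in CAST.

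After crush in DBA ganglia Isg15 (ratio 2.39; log2 fold change 0.82, SE 0.200, adjusted p = 0.00171) and Bst2 (ratio 1.67; log2 fold change 0.47, SE 0.158, adjusted p = 0.0182) rose, 2 of the 10 genes against 26.3% of all genes higher and 23.8% lower. The median log2 fold change was 0.15 over the 10 and 0.001 over all genes, and at an unadjusted p under 0.05 the count was 3. The share of all genes at that looser threshold was not counted, here or in the comparisons below. It is at least as large as the share called at the adjusted threshold. Injured libraries lay above naive ones without overlap for 8 of the 10 genes, all but Ifit2 and Rsad2, against 25.6% of all genes. The ratio of means was 3.23 for Mx1 (adjusted p = 0.828), 2.51 for Mx2 (adjusted p = 0.0710) and 1.76 for Ifit3 (adjusted p = 0.146), and none of these was called. The fit shares 1 spread over all 6 groups, which includes the wide injured CAST libraries. Fitted on the DBA libraries alone, limma called 7 genes higher (Ifit1, Ifit3, Isg15, Mx1, Mx2, Bst2 and Usp18), with 26.6% of all genes higher. Injured DBA replicate 3 was the highest of its group for 10 of 10 genes, and without it Isg15 alone was called (adjusted p = 0.00683). That library also had the highest erythrocyte sum of all 24, at 1300 FPKM, and 3 of 6 erythrocyte markers rose after crush in DBA; their part in the result was not tested.

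In C57 ganglia limma called 0 of the 10 genes after crush and 0 at an unadjusted p under 0.05, while 18.1% of all genes were higher and 20.5% lower. The log2 fold changes ran from -0.17 for Ifit1 to 0.24 for Bst2, with SEs of 0.216 and 0.158 and a median of 0.01. Mx2 was the only member whose injured libraries all exceeded the naive ones, against 16.0% of all genes, with a ratio of 1.65 (adjusted p = 0.368). Fitted on the C57 libraries alone, Mx2 was called (adjusted p = 0.0166). Naive C57 replicate 4 was the highest of its group for 9 of the 10 genes and injured C57 replicate 4 for 8, and these libraries widen both groups. With either of these libraries left out, 0 of the 10 genes were called after crush in C57.

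**Figure D2:**
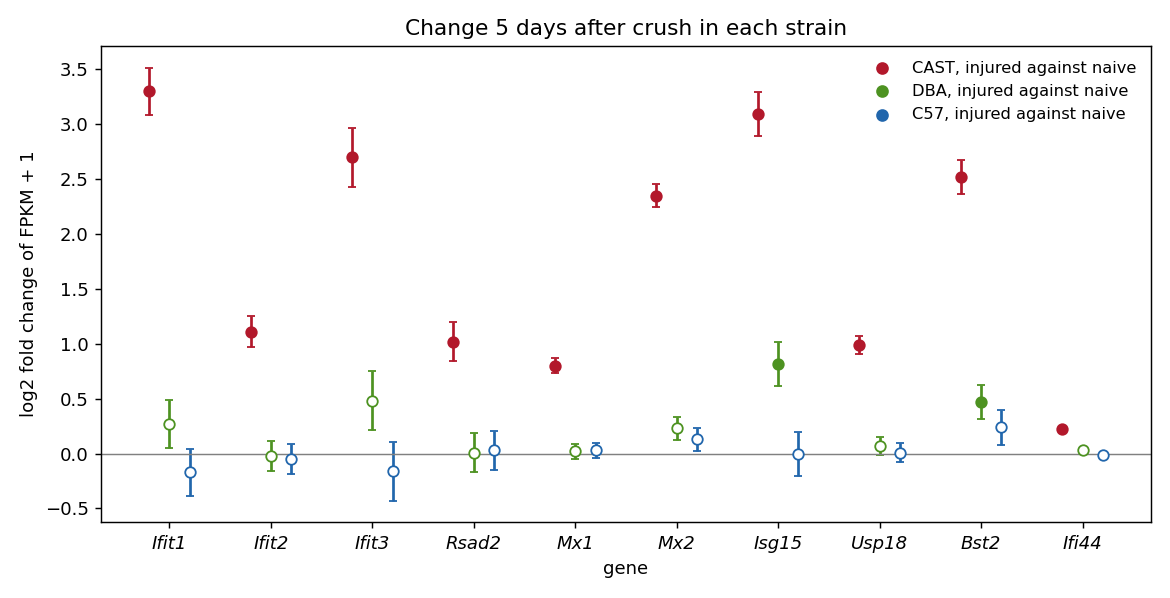
Log2 fold change of FPKM + 1 after crush (y axis) for each gene (x axis) in CAST, DBA and C57, with bars of 1 SE, from limma over 24 libraries. Filled points were called. The red CAST points run from 0.22 for Ifi44 to 3.30 for Ifit1, and in DBA Isg15 (0.82) and Bst2 (0.47) are filled.

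Whether the strains responded differently was tested as a difference between their log2 fold changes. Each of the 10 genes responded more in CAST than in C57, by 0.22 for Ifi44 to 3.47 for Ifit1 on the log2 scale, with adjusted p between 1.26e-09 and 0.0118. Among all genes 7.99% had a higher response in CAST than in C57. Against DBA the response in CAST was again higher for 10 of 10 genes (8.08% of all genes), by 0.18 for Ifi44 to 3.04 for Ifit1, with adjusted p between 1.77e-09 and 0.00901. The response of Isg15 in CAST exceeded that in C57 by 3.09 (SE 0.282) and that in DBA by 2.27 (SE 0.282), and for Mx2 the differences were 2.22 (SE 0.144) and 2.12 (SE 0.144). The median difference over the 10 genes was 1.69 against C57 and 1.59 against DBA, with 0.003 and 0.002 over all genes. These 2 sets of differences share the CAST libraries. The response of Rsad2 lost its call against C57 when the CAST and C57 libraries alone were fitted (adjusted p = 0.0567), and those of Mx1 and Ifi44 lost theirs against DBA in voom on estimated reads (adjusted p = 0.109 and 0.108). Between DBA and C57 the responses were called different for 0 of the 10 genes (5.38% of all genes higher and 3.65% lower), and 1 passed an unadjusted p under 0.05. That was Isg15, with a difference of 0.82 (SE 0.282, adjusted p = 0.0805), which was called when the DBA and C57 libraries alone were fitted (adjusted p = 0.0400).

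In the ganglia labelled naive the strains already differed, and Mx2 went the opposite way from the Ifit genes. In naive CAST against naive C57 ganglia, 5 genes were lower (Ifit1, Ifit2, Ifit3, Isg15 and Bst2; 19.9% of all genes lower) and Mx2 was higher (24.1% of all genes higher). Mx2 was 9.76 times as high in naive CAST (log2 fold change 1.16, SE 0.102, adjusted p = 9.73e-09). The mean in naive C57 was 8.14 times that in naive CAST for Ifit2 (log2 fold change -0.56, SE 0.139, adjusted p = 0.00267), 7.12 times for Ifit1 (log2 fold change -1.22, SE 0.216, adjusted p = 1.03e-04) and 6.69 times for Ifit3 (log2 fold change -1.52, SE 0.268, adjusted p = 9.18e-05). Isg15 (log2 fold change -1.09, SE 0.200) and Bst2 (-0.81, SE 0.158) had smaller ratios of means. The median over the 10 was -0.36, with 0.002 over all genes. Without overlap, 7 genes were lower in naive CAST, the 5 above with Rsad2 and Usp18 (18.5% of all genes), and Mx1 and Mx2 were higher (22.5%). With upper-quartile scaling the split of all called genes in this comparison went to 5419 higher and 6766 lower, against 6518 higher and 5374 lower as deposited, and the same 6 members were called. In this comparison 5 of 6 erythrocyte markers were lower and 5 of 5 tested adipocyte markers higher in naive CAST, and against naive DBA 0 of 6 and 5 of 5 were, and their part in the results was not tested.

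Against naive DBA, Mx2 was again higher and others lower in naive CAST. Mx2 was 12.6 times as high (log2 fold change 1.21, SE 0.102, adjusted p = 5.80e-09; 23.7% of all genes higher), and Ifit2 (log2 fold change -0.37, SE 0.139, adjusted p = 0.0341), Isg15 (log2 fold change -0.51, SE 0.200, adjusted p = 0.0435) and Bst2 (log2 fold change -0.42, SE 0.158, adjusted p = 0.0381) were lower (20.5% of all genes lower). The libraries did not overlap for any of the 10 genes: Mx1, Mx2 and Ifi44 were higher (25.2% of all genes) and the other 7 lower (22.3%). Fitted on the libraries of these 2 groups alone, limma called all 10, with 3 higher (25.3% of all genes) and 7 lower (22.5%). The 3 lower calls of the shared fit are close to its threshold, and leaving out any 1 of these 8 libraries left Mx2 alone or Mx2 and Bst2. With upper-quartile scaling Ifit3 was called as well (adjusted p = 0.0454), and all called genes split into 5362 higher and 6564 lower (6417 and 5551 as deposited).

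Naive DBA ganglia were in turn below naive C57 for Ifit1 (log2 fold change -0.85, SE 0.216, adjusted p = 0.00684), Ifit3 (log2 fold change -0.88, SE 0.268, adjusted p = 0.0227) and Isg15 (log2 fold change -0.58, SE 0.200, adjusted p = 0.0437), 3 of 10 genes against 10.2% of all genes. With no overlap 9 of the 10 were lower, all but Rsad2, against 10.9% of all genes. Fitted alone, 6 were called lower, with 7.41% of all genes. Without naive C57 replicate 4, or without naive DBA replicate 1, Ifit1 alone was called, and without any other single library of the 2 groups 2 to 4 genes were. For Ifit1, Ifit2, Ifit3, Isg15, Bst2 and Usp18 the naive levels ran in the order naive C57, naive DBA, naive CAST with no overlap between neighbours. Of these, Ifit2, Bst2 and Usp18 were not called between naive DBA and naive C57 in the shared fit. The share of all genes in that order was not counted. All reads were aligned to build mm10, and differences in transcript level and in how the reads of a strain align to it cannot be told apart here.

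After crush CAST was the highest strain for all 10 genes. Against injured C57, 10 of 10 were higher in injured CAST (28.9% of all genes), by 0.24 for Ifi44 to 3.39 for Mx2 on the log2 scale, and 9 did not overlap (25.6% of all genes), the exception being Ifit3. Fitted on these 2 groups alone, Ifit2 (adjusted p = 0.0631) and Rsad2 (adjusted p = 0.0507) were not called. Against injured DBA, 10 of 10 were higher (26.6% of all genes), by 0.23 for Ifi44 to 3.33 for Mx2, and none overlapped (24.7% of all genes). The medians over the 10 were 1.08 against C57 and 1.22 against DBA, with 0.006 and 0.003 over all genes. The ratio of means against injured C57 was 46.3 for Mx2, 23.6 for Mx1, 7.58 for Ifit1 and 2.70 for Ifit2. With upper-quartile scaling all called genes split into 5928 higher and 7518 lower against C57 (7825 and 5363 as deposited) and 5502 higher and 7324 lower against DBA (7190 and 5831 as deposited), and all 10 members stayed higher. Erythrocyte markers were called lower in injured CAST for 0 of 6 against C57 and 3 of 6 against DBA, and adipocyte markers higher for 4 of 5 in both, and their part in the results was not tested. Injured DBA did not differ from injured C57 by the test for any of the 10 genes (18.2% of all genes higher and 14.3% lower), with 0 at an unadjusted p under 0.05 and log2 differences from -0.41 for Ifit1 to 0.24 for Isg15. Ifit2 alone was lower with no overlap (15.2% of all genes). Fitted on these 2 groups alone, Ifit1 (adjusted p = 0.0434) and Ifit2 (adjusted p = 0.0313) were called lower in injured DBA (12.7% of all genes).

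**Figure D3:**
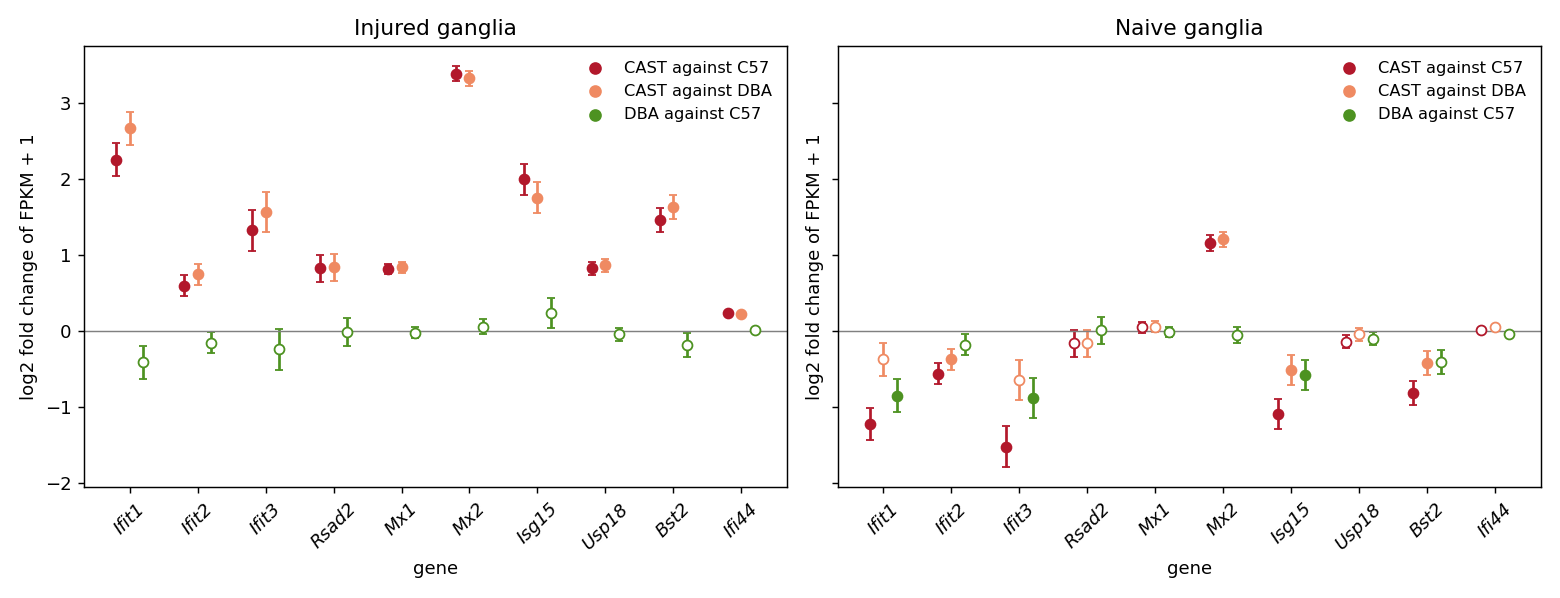
Log2 fold change of FPKM + 1 between strains for each gene, in injured ganglia (left) and naive ganglia (right), with bars of 1 SE and filled points where called. CAST points lie above 0 for every gene after injury, while in naive ganglia Mx2 lies at 1.16 against C57 and 1.21 against DBA and the Ifit genes lie below 0.

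Over all 6 groups injured CAST had the highest mean for every gene. Naive CAST was the lowest for Ifit1, Ifit2, Ifit3, Rsad2, Isg15, Usp18 and Bst2 but second for Mx1, Mx2 and Ifi44. In the order of means, the only neighbours of injured CAST that overlapped it were the naive C57 libraries for Ifit3. Among the 4 DBA and C57 groups, most neighbours overlapped. For Mx2 the order was injured CAST, naive CAST, injured DBA, injured C57, naive C57 and naive DBA, and only injured DBA and injured C57 overlapped.

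Upstream of the effector genes, the interferon genes themselves were barely detected in these libraries. Of 21 interferon genes, 1 passed the filter (Ifnk), and it was not called in any crush comparison. The highest estimate for the other 20 was 21 reads in a library, for those with a known span. Ifnb1, which encodes interferon beta, was listed at 0.0414 FPKM in its highest injured CAST library, at most 3.9 estimated reads, and at 0.0129 FPKM in its highest naive CAST library. Ifng, for interferon gamma, had at most 4 estimated reads in any library. At such counts a difference in Ifnb1 or Ifng was not detectable. Ifnz, another gene of the type I ligands, did not pass the filter and was not tested. It stood at 0.0256 to 0.0788 FPKM in injured and 0 to 0.00799 FPKM in naive DBA ganglia. Its highest library was at 0.115 FPKM in injured C57, 0.0419 in naive C57, 0.00597 in injured CAST and 0.0197 in naive CAST. Ifnl2, a lambda interferon gene also untested, was at 0.0720, 0.0737, 0.0323 and 0.0339 FPKM in injured CAST. Ifnl3, likewise untested, was at 0.0724, 0.0536, 0.0352 and 0.0277 FPKM there. In naive CAST these lambda genes reached at most 0.0432 and 0.0471 FPKM. Several Ifna genes share sequence, as Ifna1 and Ifna5 held the same number of estimated reads in 7 of the 8 libraries where Ifna1 was above 0. Receptor genes had small ratios. Ifnar1 was at 0.563 ± 0.0483 FPKM in injured CAST and 0.515 ± 0.0234 FPKM in naive CAST (SD, n = 4; adjusted p = 0.160), and Ifnar2 had a ratio of 1.29 in CAST, 1.51 in DBA and 1.24 in C57. Of 9 receptor and kinase genes, 4 rose and 1 fell in CAST (median log2 fold change 0.05), 6 rose in DBA (0.10), and 4 rose and 1 fell in C57 (0.04). Beside these and the list counts below, 25.6% of all genes rose and 21.5% fell in CAST. In DBA 26.3% of all genes rose and 23.8% fell, and in C57 18.1% rose and 20.5% fell. Jak2, a kinase of cytokine receptors, had the largest ratio in CAST, 1.48 (log2 fold change 0.12, adjusted p = 1.36e-06), with 1.49 in DBA and 1.32 in C57. Il10rb, a receptor chain shared by interferon lambda, rose 1.21-fold, Ifngr1, a chain of the interferon gamma receptor, 1.12-fold, and Jak1 fell to a ratio of 0.923 in CAST (adjusted p = 0.0146).

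Transcription factors of the pathway also rose in CAST. Of 9 STAT and IRF genes, 7 rose and 1 fell in CAST (median log2 fold change 0.40), 5 rose and 1 fell in DBA (0.09), and 2 rose and 1 fell in C57 (0.04). Irf7, the factor that amplifies interferon production, was at 1.60 ± 0.653 FPKM in injured CAST and 0.0525 ± 0.00470 FPKM in naive CAST (log2 fold change 1.27, adjusted p = 4.74e-09), a ratio of 30.6, with 1.76 in DBA and 1.17 in C57. The 1 that fell in each strain was Irf2, a repressor of interferon-induced genes, with ratios of 0.756 in CAST, 0.695 in DBA and 0.834 in C57. Stat2 was at 3.49 ± 0.984 and 1.37 ± 0.0552 FPKM in injured and naive CAST (log2 fold change 0.90, adjusted p = 2.21e-07), and Irf9 at 1.32 ± 0.258 and 0.537 ± 0.0188 FPKM (log2 fold change 0.59, adjusted p = 1.23e-08). Their responses in CAST exceeded those in C57 by 1.23 for Irf7, 0.81 for Stat2 and 0.55 for Irf9 on the log2 scale, with adjusted p of 8.91e-06, 4.10e-04 and 2.70e-05.

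Of 10 genes for inhibitors of the pathway, 6 rose and 1 fell in CAST, 6 rose and 2 fell in DBA, and 5 rose and 1 fell in C57. Socs3, which restrains gp130 cytokine receptors, had ratios of 3.30 in CAST, 4.97 in DBA and 2.46 in C57, and Socs1, which restrains interferon receptors, 4.10, 3.90 and 1.98, each called. Cish, a relative of the SOCS genes, had 2.47, 2.41 and 1.78, and Ptpn1, a phosphatase of JAK kinases, 2.01, 2.52 and 2.0, each called. Of 5 genes for joining ISG15 to proteins, 4 rose and 1 fell in CAST, 1 rose and 1 fell in DBA, and 0 were called in C57. The 1 that fell in CAST and in DBA was the conjugating enzyme Ube2e2, with ratios of 0.891 and 0.827. The 4 that rose in CAST were the E1 enzyme Uba7 (0.243 ± 0.0676 FPKM in injured and 0.0606 ± 0.00371 FPKM in naive CAST), the E2 enzyme Ube2l6 (1.32 ± 0.132 and 0.602 ± 0.0152), and the ligases Herc6 (0.228 ± 0.0796 and 0.0686 ± 0.00792) and Trim25 (0.774 ± 0.248 and 0.455 ± 0.0163).

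Most other genes known to be induced by interferon rose in CAST as well. Of 43 such genes, 38 rose and 0 fell in CAST (median log2 fold change 0.29), 16 rose and 3 fell in DBA (0.06), and 7 rose and 3 fell in C57 (0.01). The 5 that were not called in CAST, named after their values were seen, were Ifi44l, Ifi27, Ifitm1, Cmpk2 and Iigp1. Iigp1, a GTPase that attacks parasite vacuoles, was at 0.00225 ± 0.00114 FPKM in injured and 0.000983 ± 0.000457 FPKM in naive CAST, while it was at 0.223 ± 0.254 and 0.0782 ± 0.00934 FPKM in injured and naive DBA and at 0.234 ± 0.170 and 0.127 ± 0.0180 FPKM in injured and naive C57 ganglia (SD, n = 4). Ifi27l2a, a mitochondrial protein gene, was at 22.0 ± 4.17 FPKM in injured CAST and 1.40 ± 0.248 FPKM in naive CAST (log2 fold change 3.25, adjusted p = 1.36e-12). Ifitm3, which blocks viral entry, was at 60.1 ± 9.62 and 10.1 ± 0.385 FPKM (log2 fold change 2.45, adjusted p = 1.34e-13), and it also rose in DBA (ratio 2.43) and C57 (ratio 1.36). Rtp4 was at 4.65 ± 1.60 and 0.299 ± 0.0864 FPKM (log2 fold change 2.08, adjusted p = 4.52e-10). Of 9 oligoadenylate synthetase genes, which sense double-stranded RNA, 7 rose and 0 fell in CAST, 3 rose and 2 fell in DBA, and 1 rose and 1 fell in C57, with CAST ratios of 14.5 for Oas1a, 10.9 for Oas1g, 9.92 for Oasl2 and 4.57 for Oas1b. Of 11 nucleic acid sensors, 10 rose in CAST, 6 in DBA and 5 in C57, and 0 fell. Ifi204, a DNA sensor, had a ratio of 23.6 in CAST, Tlr9, an endosomal DNA receptor, 8.34, Tmem173, which encodes STING, 2.70, and Dhx58, an RNA helicase, 2.43.

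**Figure D4:**
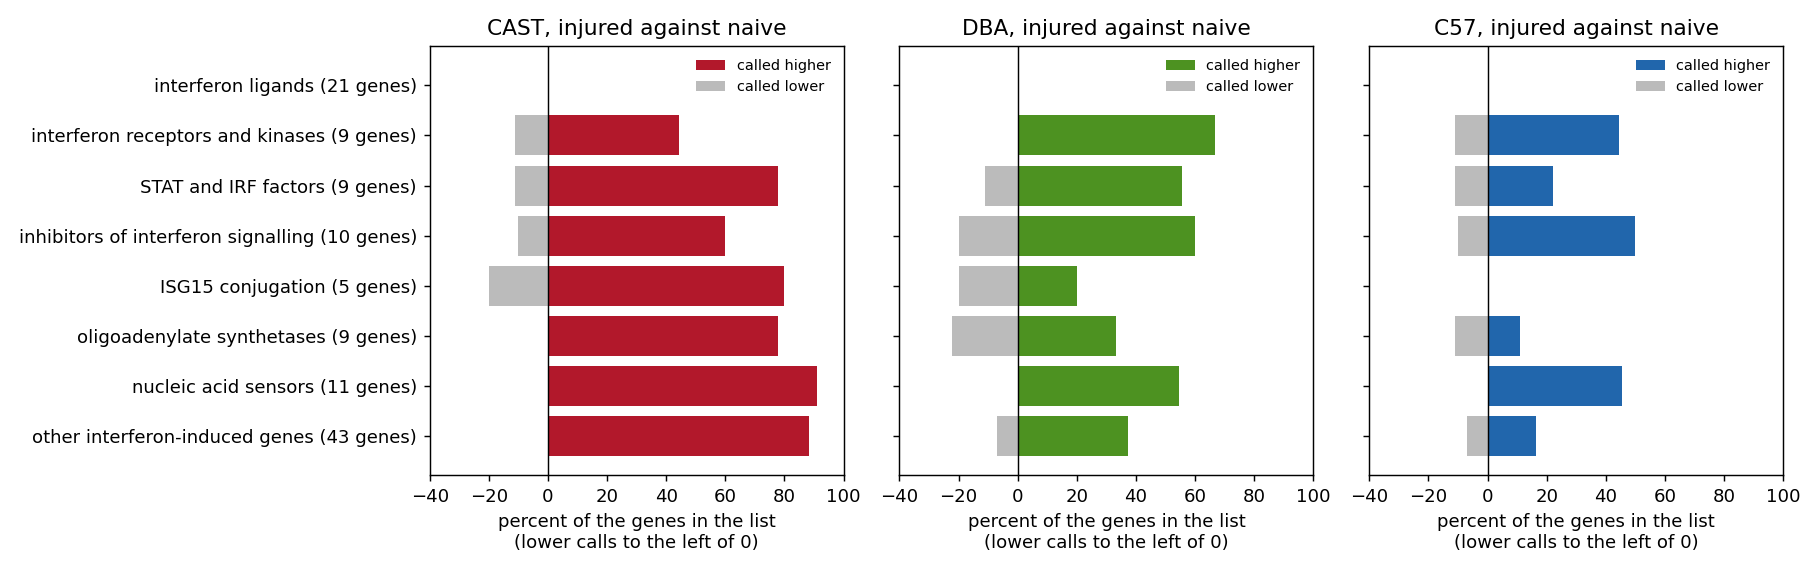
Percent of the genes of each pathway list called higher (coloured, right of 0) or lower (grey, left of 0) after crush, for CAST, DBA and C57 from left to right. In CAST 38 of 43 other interferon-induced genes were higher, against 16 in DBA and 7 in C57, while of 10 inhibitors 6, 6 and 5 were higher in CAST, DBA and C57. Of all genes, 25.6% were higher in CAST, 26.3% in DBA and 18.1% in C57.

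Over 24 libraries the 45 pairs of members had a Pearson r of log2(FPKM + 1) between 0.58 and 0.98 with a median of 0.90, and for deviations from the group means between 0.66 and 0.99 with a median of 0.83. These values share the same libraries and their depth, and are given as a description. Outside the 10, the genes most like their mean standardised level were Irf7 (r = 0.995), Oas1a (0.988), Rtp4 (0.988), Oas1g, Ifih1, Oasl1, D14Ertd668e, Ifi205, Stat2 and Herc6 (0.969). By deviation from the group means they were Oas1b (r = 0.987), Dtx3l (0.970), Stat2, Oas1a, Irf7, Cmpk2, Oasl2, Cd274, Parp10 and Oas1g (0.950), with Irf7, Stat2, Oas1a and Oas1g on both lists. Cmpk2, which lies on the second list, was at 3.40 FPKM in injured and 3.03 FPKM in naive CAST ganglia.

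In some groups the 10 genes varied together by library. Injured CAST replicates 1 to 4 deviated from their group mean by 0.45, 0.64, -0.62 and -0.47 on the log2 FPKM scale, averaged over the 10 genes. Injured DBA replicate 3 deviated by 0.38, injured C57 replicate 4 by 0.44 and naive C57 replicate 4 by 0.43, while the naive DBA libraries, of which none was the highest for more than 4 genes, stayed within -0.06 and 0.06. For each list of cell type markers, the groups were counted where the library highest for the 10 genes also had the highest sum. This number was 0 to 2 of 6 for every list except that of the erythrocyte. For the sum of 6 erythrocyte markers it was 4 of 6 groups, and their part in this was not tested. That sum was 274 to 537 FPKM in injured CAST and 207 to 420 FPKM in naive CAST ganglia, 386 to 1300 and 243 to 497 FPKM in injured and naive DBA, and 415 to 852 and 443 to 874 FPKM in injured and naive C57.

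**Figure D5:**
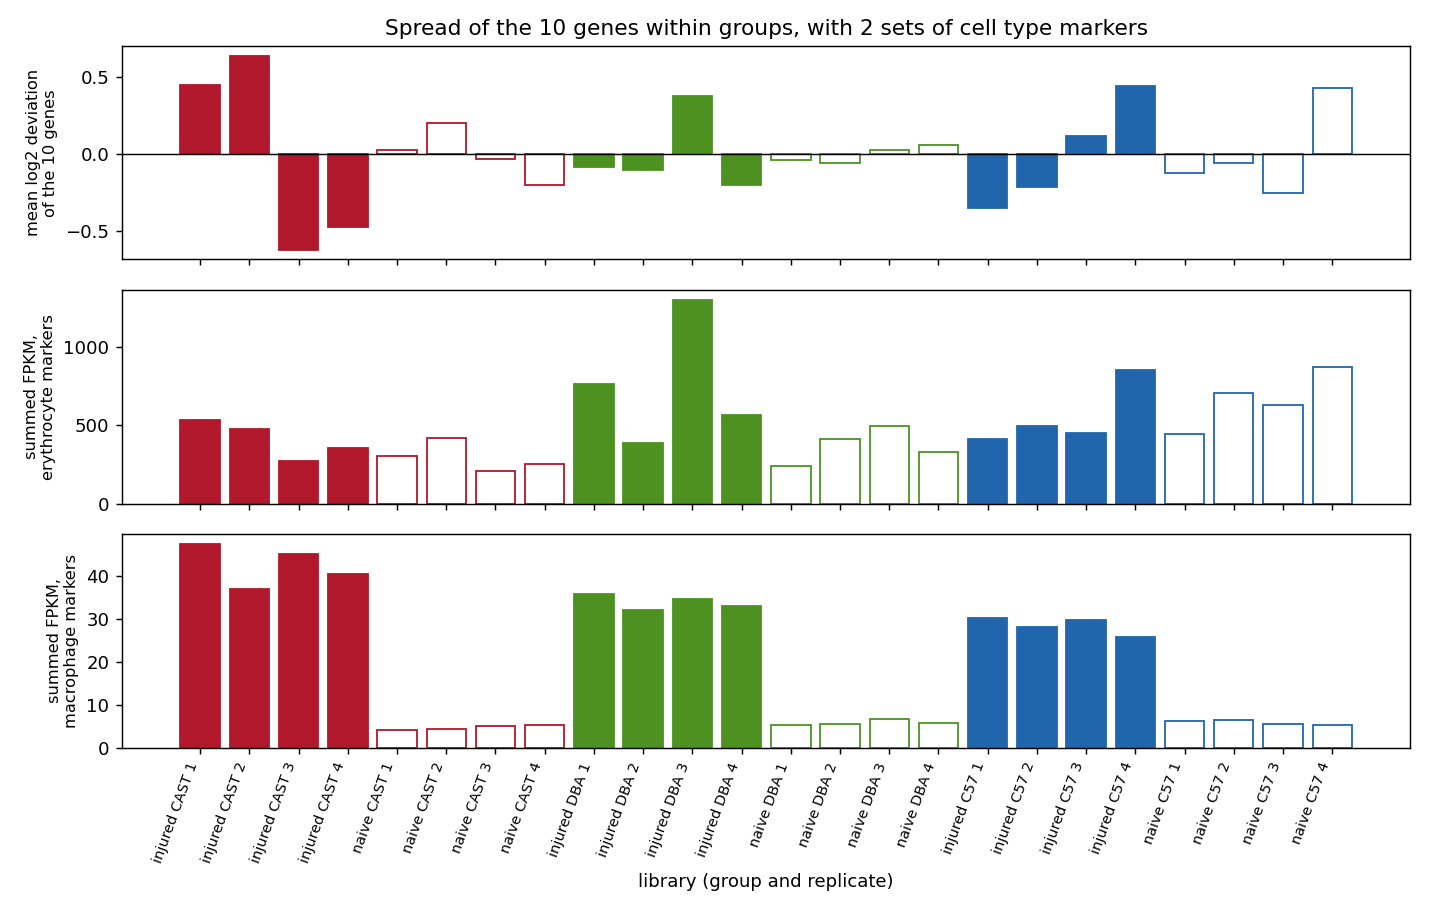
Top, mean deviation of the 10 genes from their group mean on the log2 FPKM scale, by library (filled bars injured, open bars naive). Middle and bottom, summed FPKM of 6 erythrocyte and 12 macrophage markers in the same libraries. Injured CAST 1 and 2, injured DBA 3, injured C57 4 and naive C57 4 stand out at the top, and macrophage sums are high in all injured groups.

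Markers of immune cells were also measured. After crush 25.6% of all genes rose and 21.5% fell in CAST, 26.3% and 23.8% in DBA, and 18.1% and 20.5% in C57. Of 12 macrophage markers, 11 rose in CAST, 12 in DBA and 12 in C57. Their sum was 37.1 to 47.5 FPKM in injured and 4.18 to 5.25 FPKM in naive CAST, 32.2 to 35.9 and 5.41 to 6.77 FPKM in injured and naive DBA, and 25.8 to 30.3 and 5.25 to 6.54 FPKM in injured and naive C57. The response of 8 of these markers was higher, and of 2 lower, in CAST than in C57 (2162 and 1388 of all 27058 genes tested). That of 5 markers was higher and of 1 lower in CAST than in DBA (2187 and 2039 of all genes tested). The part of these markers in the response of the 10 genes was not tested. Of 8 plasmacytoid dendritic cell markers, 3 rose and 1 fell in CAST, 3 rose and 1 fell in DBA, and 2 rose and 2 fell in C57. Their sum was 2.85 to 3.47 FPKM in injured and 3.11 to 3.46 FPKM in naive CAST. The defining marker Siglech had at most 30.1 estimated reads, and Tlr9, given above with the sensors, is also on this list. Of 13 T and NK cell markers, 12 were tested and 10 rose in CAST, 5 in DBA and 2 in C57. Their sums were at least 0.476 FPKM in injured CAST and at most 0.285 FPKM in naive CAST. They were also at least 0.313 FPKM in injured DBA and at most 0.255 FPKM in naive DBA. In C57 they were at least 0.334 FPKM in injured and at most 0.332 FPKM in naive ganglia. The injured sums thus lay above the naive ones in each strain, narrowly in C57. The part of the T and NK cell markers in the result was not tested.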

How the data were processed

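Total RNA of dorsal root ganglia was extracted with Trizol and sequenced by standard Illumina protocols, per the labels. Reads were aligned with STAR 2.3.0 to mouse genome build mm10, per the submitters' processing notes. The authors deposited 1 table of FPKM per library and a table of the whole series, which held the same values in all 24 libraries. The counting tool, annotation, use of strand and treatment of reads with several hits are not stated in those notes or in the labels.

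Low FPKM values lay on steps that fit whole reads over the full span of a gene (GENCODE M21, found for 95.3% of gene IDs). With the steps of each library, 67.8% of values between 0.5 and 100 reads came out whole within 0.05 reads, where chance gives 10%. Library totals and reads per gene estimated in this way were used for the filter, the depth and alternatives only. The filter asked for 10 or more estimated reads (for IDs without a span, an FPKM of 0.1 or more) in 4 or more libraries and left 27058 of 38215 genes, and log2(FPKM + 1) was fitted with limma 3.58.1 in R 4.3.3 on all 24 libraries, with 6 group means, a robust variance trend over the mean level and p-values adjusted over all genes tested by the method of Benjamini and Hochberg. A response difference is the difference between the crush effects of a pair of strains. The computation was tested on simulated data.

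Groups came from the strain and treatment labels. Replicate numbers 1 to 4 are in every group, but same-numbered injured and naive libraries of a strain correlated between -0.21 and 0.23 in their deviations, so the numbers were not taken as pairs. Tables were handled in Python. Alternatives changed the pseudocount (0.1), the filter, the unit (CPM of estimated reads), the test (voom), the scaling, the groups in the fit, the replicate block and the libraries. The 10 members, pathway lists and cell markers were chosen with earlier results of these data known. Named outside the 10 are up to 4 genes a list called after crush in CAST with the largest absolute log2 fold change, the core genes of the pathway, near copies of members, and the 10 genes most like the members by r. Irf2, Ube2e2, Ifna1, Ifna5, Ifng, Ifnk, Ifnz, Ifnl2, Ifnl3, Siglech and the 5 interferon-induced genes not called in CAST were chosen after their values were seen. Promoter windows came from RefSeq.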

Additional observations from a re-analysis of the deposited data

Results flagged for a closer look

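A library stood apart from the other 3 of its group in 3 of 60 sets of 4 values tested by Dixon's ratio, and chance flags about 1 in 20 groups. Ifit1 was at 3.12 FPKM in naive C57 replicate 4, with the other naive C57 libraries between 1.61 and 1.78 FPKM. Ifit3 was at 4.57 FPKM in the same library, against 2.82 to 3.05 FPKM in the others. Ifit3 was also at 3.80 FPKM in injured DBA replicate 3, with 1.74 to 2.0 FPKM in the other injured DBA libraries.

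The response to crush differed between strains for all 10 genes by the test of the difference in limma. Against C57 the response in CAST was larger on the log2(FPKM + 1) scale by 3.47 for Ifit1, 1.16 for Ifit2, 2.85 for Ifit3, 0.99 for Rsad2, 0.77 for Mx1, 2.22 for Mx2, 3.09 for Isg15, 0.97 for Usp18, 2.28 for Bst2 and 0.22 for Ifi44. Against DBA it was larger by 3.04 for Ifit1, 1.13 for Ifit2, 2.21 for Ifit3, 1.0 for Rsad2, 0.78 for Mx1, 2.12 for Mx2, 2.27 for Isg15, 0.92 for Usp18, 2.05 for Bst2 and 0.18 for Ifi44.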

How the results depend on the processing

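All 10 genes were called higher after crush in CAST under every alternative run, and all 10 responses in CAST exceeded those in C57 and in DBA except where named in the results. Counts of called genes moved by over 1.5 times in the comparisons below, except with the replicate block, and the cause was not tested. For the alternatives of pseudocount, filter, CPM, voom, left-out libraries and replicate block, the share of all genes called was not counted. Whether those settings call more genes in general is therefore not shown. With log2(FPKM + 0.1), 1 gene was called after crush in C57, 1 in the response of DBA against C57 and 8 in naive CAST against DBA. Without a filter on low values, 2 were called in naive CAST against DBA. With log2(CPM + 0.5) the counts were 6 after crush in DBA, 1 after crush in C57, 1 in the response of DBA against C57, 10 in naive CAST against DBA and 6 in naive DBA against C57. With voom they were 4 after crush in DBA, 1 after crush in C57 and 7 in naive CAST against DBA. With only the groups of a comparison fitted they were 7 after crush in DBA, 1 after crush in C57, 1 in the response of DBA against C57, 10 in naive CAST against DBA, 6 in naive DBA against C57 and 2 in injured DBA against C57. Leaving out 1 library at a time gave 1 to 2 after crush in DBA, 0 to 1 in the response of DBA against C57, 1 to 2 in naive CAST against DBA and 1 to 4 in naive DBA against C57. Without naive DBA replicate 3 and C57 libraries injured 3 and naive 1, chosen after seeing the data, 1 was called in naive CAST against DBA and 1 in naive DBA against C57. With the replicate block, although the numbers do not pair the libraries, 3 genes were called in naive CAST against DBA, 2 in naive DBA against C57, 2 after crush in DBA and 10 after crush in CAST.

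Signs turned for log2 fold changes near 0. With voom Isg15 after crush in C57 was at -0.011, Mx1 in the response of DBA against C57 at 0.5743 and Rsad2 in injured DBA against C57 at 0.0084, and with upper-quartile scaling Isg15 after crush in C57 was at -0.0044. Leaving out 1 library at a time, values after crush in C57 ran from -0.1206 to 0.1471 for Isg15, from -0.0105 to 0.039 for Usp18 and from -0.0121 to 0.0013 for Ifi44. In injured DBA against C57 they ran from -0.0275 to 0.0191 for Rsad2 and from -0.0051 to 0.014 for Ifi44. In the response of DBA against C57 they ran from -0.0427 to 0.0109 for Rsad2 and from -0.0176 to 0.0068 for Mx1. For Rsad2 they ran from -0.0088 to 0.0363 in naive DBA against C57 and from -0.0033 to 0.0222 after crush in DBA. Without the 3 libraries named above, Isg15 after crush in C57 was at -0.0298, and Rsad2 was at 0.0053 in the response of DBA against C57, at -0.0005 in naive DBA against C57 and at 0.0048 in injured DBA against C57. Of the single-gene values under alternatives other than leaving out libraries, 883 kept their direction and side of the threshold, 61 newly passed it, 12 no longer passed it and 4 changed sign. With 9 to 14 estimated reads per library, Mx1 in naive DBA is limited by depth.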
